A study of Rattus norvegicus with 9 samples.

Results

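Prostaglandin synthesis and receptors in rat bone were followed through 10 genes: Ptgs2, Ptgs1, Ptges, Ptgds, Ptgis, Hpgd, Tbxas1, Ptger2, Ptger3 and Ptger4. They were taken by symbol from the 23026 genes listed in the deposited tables, and all 10 were found. The set was chosen by function, but with results of these data known, among them the difference of Ptgs2 between OVX and both other groups. The differences of the 10 genes between groups are therefore given as a description. No p is printed for them, and counts of members past a threshold only place them beside the same counts over all genes.

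Bone mRNA came from 9 female Sprague-Dawley rats, 8 weeks old at purchase, in 3 groups of 3 libraries. Sham rats lost a like amount of fat beside the ovary and kept both ovaries. OVX rats had both ovaries removed. OVX-AS-IV-High rats, here also named the treated rats, were ovariectomized too and received AS-IV (astragaloside IV, a saponin of Astragalus root) at 80 mg/kg. Gavage began 6 weeks after surgery and ran daily for 8 weeks in every group, so the controls received the vehicle, CMC-Na (sodium carboxymethyl cellulose). Per the labels, CMC-Na was at 1% in Sham replicate 1, 2% in Sham replicate 2 and 3% in Sham replicate 3, and at 1% in OVX rats, whereas the study's methods name a single strength. The tissue label is bone, with no sorting of cells, so marrow, vessels and attached muscle were measured along with bone cells. The model rests on surgery and not on natural ageing, the labels name no engineered allele, and 1 dose of AS-IV was sequenced.

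Prostaglandins are short-lived lipid signals made on demand. Phospholipases free arachidonic acid from membranes, the cyclooxygenases Ptgs1 and Ptgs2 turn it into prostaglandin H2, and terminal synthases turn that into prostaglandin E2 (Ptges), prostaglandin D2 (Ptgds), prostacyclin (Ptgis) or thromboxane (Tbxas1). Hpgd breaks prostaglandins down, and Ptger2, Ptger3 and Ptger4 encode the EP2, EP3 and EP4 receptors for prostaglandin E2. In bone, prostaglandin E2 is known to act on both osteoblasts and osteoclasts, and loading and inflammatory cytokines are known inducers of Ptgs2, whereas Ptgs1 is usually expressed at a steady level.

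The promoters of both cyclooxygenase genes are shown because Ptgs2 was the member whose level lay apart between groups and Ptgs1 catalyses the same step. Each line holds the 250 bases before the start of the gene, 5′ to 3′ on the plus strand, from RefSeq on build GRCr8. The Ptgs2 stretch is chr13:64713813-64714062 and the Ptgs1 stretch is chr3:39981169-39981418. Capitals mark matches to the motifs searched.
Ptgs2: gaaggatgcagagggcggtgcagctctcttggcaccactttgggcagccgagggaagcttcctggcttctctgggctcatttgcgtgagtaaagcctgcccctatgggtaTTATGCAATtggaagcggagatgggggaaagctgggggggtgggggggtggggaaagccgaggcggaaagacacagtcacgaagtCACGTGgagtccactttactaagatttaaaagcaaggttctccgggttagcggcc
Ptgs1: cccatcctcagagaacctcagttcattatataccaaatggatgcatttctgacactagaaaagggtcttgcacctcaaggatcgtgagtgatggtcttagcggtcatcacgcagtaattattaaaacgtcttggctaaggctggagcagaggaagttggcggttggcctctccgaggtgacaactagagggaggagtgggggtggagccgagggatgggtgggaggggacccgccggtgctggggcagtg
The search covered the E-box letters CACGTG, the cAMP response element in full, TGACGTCA, and as its shorter core, TGACG, which the full element contains, along with the TATA box as TATAAA, the AP-1 site as TGANTCA, and the C/EBP site as TTNNGCAAT, on both strands. In windows of 250 bases before and 50 after the start, these letters were held by 6.42%, 1.83%, 21.2%, 14.2%, 7.33% and 2.33% of 33469 promoters. The Ptgs2 stretch held the E-box letters, beginning 55 bases before the start, and a C/EBP match, TTATGCAAT, beginning 140 bases before it. The Ptgs1 stretch held none of the 6 motifs. Of the 10 members, 9 had a promoter in the table, and Ptgis had none. In the window of 300 bases, Hpgd held the E-box letters and the core of the cAMP response element, Tbxas1 held the TATA box on the reverse strand and an AP-1 match, and the 5 others held none. A match is a run of letters and not evidence of a bound factor.

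Library totals lay between 34874880 and 37298250 counts, and 16874 genes passed the filter on low counts, all 10 members included. The labelled tissue was checked with 15 marker lists, in which 76 of 78 markers were found, each with more than 3 counts in at least 1 library. Osteoblast markers summed to 2958 to 11403 CPM (counts scaled to library depth) and osteoclast markers to 569 to 2029 CPM. Skeletal muscle markers ranged from 463 to 7791 CPM and were highest in Sham replicates 1 and 2. No gene passed an adjusted p of 0.05 in edgeR's quasi-likelihood test in any comparison (0 of 16874). Unadjusted p-values under 0.05 were found for 2775 genes in OVX vs. Sham, 1089 in treated vs. OVX and 2978 in treated vs. Sham, and DESeq2 gave adjusted p-values under 0.05 to 834, 37 and 1009 genes.

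Per length, Ptgs1 and Ptgis led the 10 members. Mean FPKM (a level scaled to gene length and to library depth) over the 9 libraries was 32.1 for Ptgs1 and 31.3 for Ptgis, at the 86.1st and 85.8th percentiles of the genes tested. Tbxas1 followed at 4.06 FPKM, Ptger4 at 3.00, Ptgs2 at 1.56, Ptger3 at 1.08, Ptges at 1.05, Ptger2 at 0.584, Hpgd at 0.313 and Ptgds at 0.281. Only between Ptgis and Tbxas1, a step of 7.72-fold, did the ranges of neighbours in this order not overlap. Ptger4 exceeded Ptgs2, and Ptges exceeded Ptger2, within each of the 9 libraries although their ranges overlapped. The order of Ptgs1 and Ptgis was not settled, since Ptgs1 was the higher in 4 of 9 libraries. The sum of FPKM of the 4 terminal synthases among the members was 78.3% to 90.2% Ptgis, and Ptges, the inducible synthase for prostaglandin E2, held 1.72% to 4.79%. That sum leaves out Hpgds, a prostaglandin D2 synthase and no member. It also leaves out Ptges2 and Ptges3, which are counted among prostaglandin E2 synthases as well and are no members. Ptges2 had 4.07 to 7.68 FPKM and Ptges3, which is also a co-chaperone, had 140.7 to 211 FPKM, both above Ptges within every library.

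**Figure D1:**
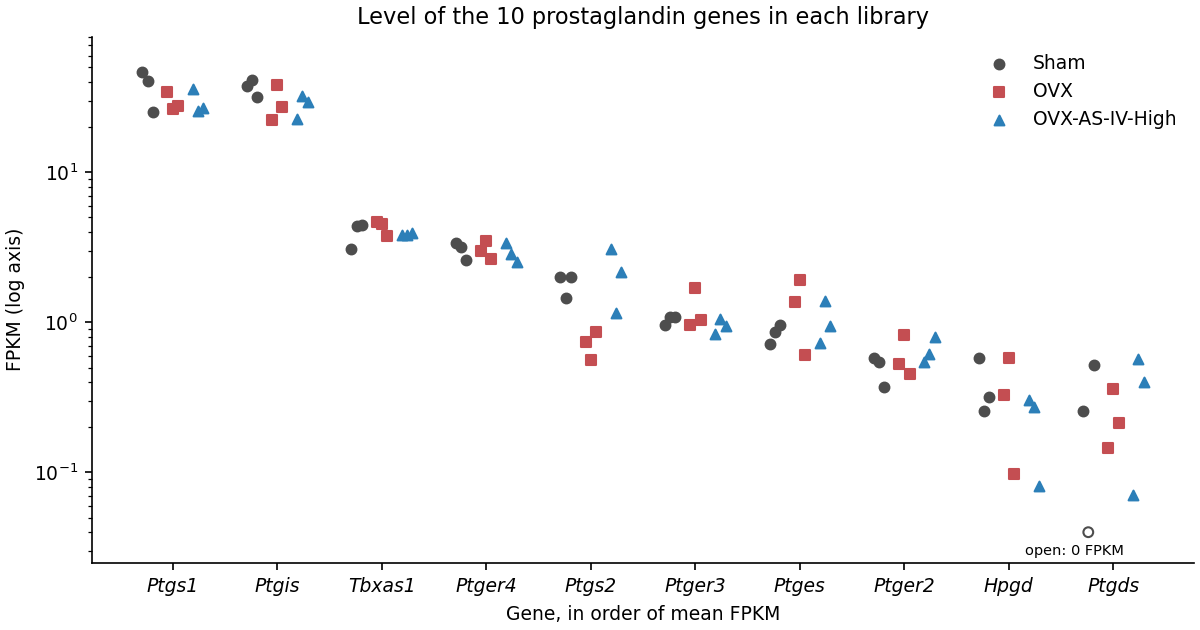
FPKM on a log axis for each of the 10 genes, in order of mean FPKM, with 1 point per library and the 3 groups side by side. Ptgs1 and Ptgis lie above the other 8 genes in every library, the OVX points of Ptgs2 lie below those of both other groups, and the open point marks Ptgds at 0 in Sham replicate 2.

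Ptgs2 (gene identifier 29527), the inducible cyclooxygenase, was at its lowest in OVX. Its counts were 314, 223 and 313 in the Sham libraries, against 117, 91 and 139 in OVX, and reached 507, 189 and 347 in the treated libraries. In CPM these were 8.63, 6.54 and 8.82, then 3.19, 2.40 and 3.77, then 14.0, 5.12 and 9.54. Every OVX library lay below every library of the other groups, and the treated libraries covered a wider range than the Sham libraries and enclosed it. Group means were 8.00 ± 1.26 CPM for Sham, 3.12 ± 0.688 for OVX and 9.54 ± 4.42 for treated rats (SD, n = 3 each).

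The log2FC of Ptgs2 was -1.36 (standard error 0.346) in OVX vs. Sham and 1.61 (standard error 0.348) in treated vs. OVX. The OVX libraries stand in both values, so the height of those 3 libraries enters each. Between treated and Sham the log2FC was 0.25 (standard error 0.337), with a 95% interval from -0.50 to 1.01. That interval spans ratios from 0.706 to 2.02, so the values allow any ratio within that range, lower or higher than in Sham. The sign turned to -0.13 without treated replicate 1 and the value was 0.56 without treated replicate 2. On log2(FPKM + 1), which compresses genes of low level, limma gave -0.71 and 0.83 for the first 2 comparisons. In whole tissue, fewer cells that express a gene and less RNA per cell cannot be told apart.

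In both comparisons in which the Ptgs2 ranges were apart, the summed markers of the B lineage were apart too, with 4 of 4 markers found. They were 462 to 611 CPM in Sham, 823 to 855 in OVX and 553 to 803 in treated rats, so OVX was the highest where Ptgs2 was the lowest. In OVX vs. Sham, the ranges were also apart for adipocyte markers (264 to 374 CPM in Sham, 436 to 595 in OVX, 5 of 5 markers found) and for T and NK cell markers (101 to 127 CPM, then 142 to 180, 4 of 4 found). Mast cell markers (214 to 300 CPM in Sham, 191 to 212 in OVX, 6 of 6 found) and Schwann cell markers (46.2 to 61.4 CPM, then 38.1 to 45.7, 4 of 4 found) were lower in OVX. In treated vs. OVX, the B lineage was the only 1 of the 15 lists apart. Macrophage markers, at 456 to 815 CPM in Sham, 584 to 665 in OVX and 529 to 595 in treated rats, overlapped between OVX and Sham. Over the 9 libraries, log2 Ptgs2 followed the erythroid markers most closely (r = 0.699, rho = 0.817, 6 of 6 markers found), then the osteoblast markers (r = -0.682, rho = -0.683, 5 of 5 found) and the B lineage (r = -0.620, rho = -0.667). Erythroid markers summed to 40894 to 58659 CPM in Sham, 34995 to 43643 in OVX and 41280 to 51239 in treated rats, and osteoblast markers to 2958 to 8582, 6910 to 11403 and 3541 to 9609 CPM, and both overlapped between groups. The part of these shifts in the Ptgs2 values was not tested.

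Ptgs1 (24693), the constitutive cyclooxygenase, showed no such division by group. It had 127, 115 and 70.9 CPM in Sham against 94.5, 71.9 and 77.4 in OVX and 103, 72.3 and 74.5 in treated rats. Sham replicates 1 and 2, OVX replicate 1 and treated replicate 1 were high, and the 5 other libraries lay close together, so the groups overlapped. The log2FC was -0.36 (standard error 0.223) in OVX vs. Sham, 0.03 (standard error 0.223) in treated vs. OVX and -0.33 (standard error 0.223) in treated vs. Sham. The 95% interval of OVX vs. Sham ran from -0.86 to 0.14.

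The libraries rich in Ptgs1 were those poor in osteoclast markers and rich in skeletal muscle markers. The summed osteoclast markers were 569, 1002, 981 and 863 CPM in those 4 libraries and 1498 to 2029 CPM in the 5 others. The summed skeletal muscle markers (7 of 8 found) were 7791, 5139, 2721 and 3902 CPM in the same 4 libraries and 463 to 1776 CPM in the 5 others. Of the 15 marker lists, osteoclast followed log2 Ptgs1 most closely by r (r = -0.925, rho = -0.667, n = 9) and macrophage by rho (r = -0.772, rho = -0.867), both read after the values were seen. Osteoblast (r = -0.908, rho = -0.783), skeletal muscle (r = 0.868, rho = 0.750) and adipocyte markers (r = -0.859, rho = -0.717) followed it as well. Ptgs2 followed the osteoclast markers (r = -0.351, rho = -0.250, n = 9) and the skeletal muscle markers (r = 0.127, rho = 0.050) weakly. It followed the osteoblast (r = -0.682, rho = -0.683) and adipocyte markers (r = -0.512, rho = -0.517) more closely. Megakaryocyte and platelet markers, of a lineage known for Ptgs1, had r = 0.735 and rho = 0.850 with Ptgs1. All points share the 9 libraries, and the part of cell composition in the Ptgs1 values was not tested.

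**Figure D2:**
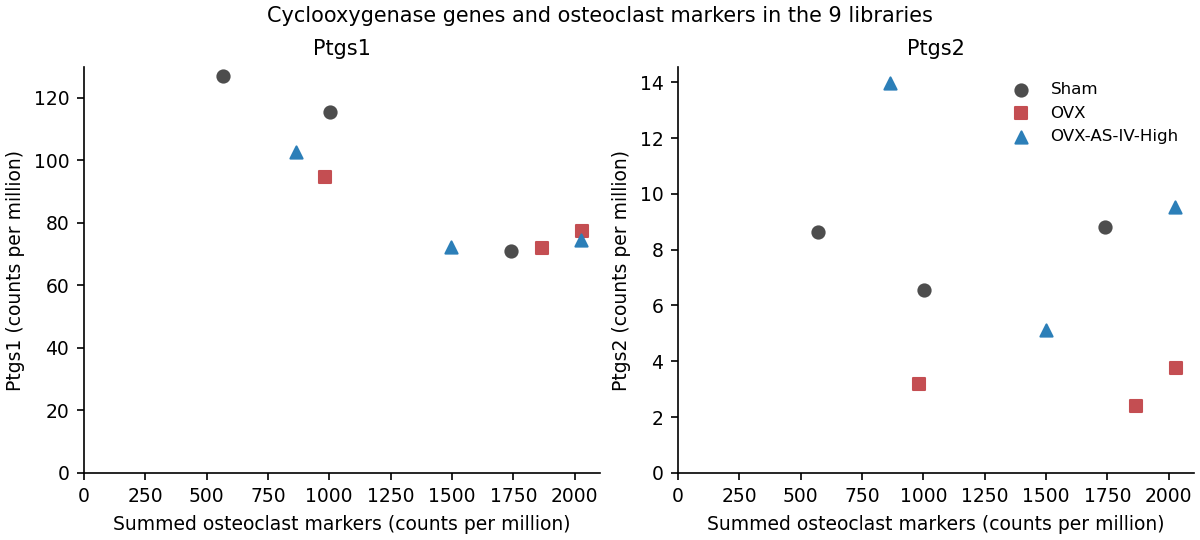
CPM of Ptgs1 (left) and Ptgs2 (right) against the summed CPM of 5 osteoclast markers, 1 point per library, coloured and shaped by group. The 4 libraries with more than 94 CPM of Ptgs1 have the 4 lowest marker sums, whereas the 3 OVX libraries have low Ptgs2 at marker sums from 981 to 2029 CPM.

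As a share of Ptgs1 in the same library, Ptgs2 FPKM was 4.32%, 3.61% and 7.92% in Sham, against 2.15%, 2.12% and 3.10% in OVX libraries and 8.66%, 4.50% and 8.15% in treated rats. The OVX libraries again lay below all others on this ratio, which does not depend on the scaling between libraries. The means were 5.28% ± 2.31, 2.46% ± 0.556 and 7.10% ± 2.27 (SD, n = 3 each). Ptgs2 made up 2.08% to 7.97% of the FPKM of both cyclooxygenases, with a median of 4.14%, so Ptgs1 was the main cyclooxygenase transcript in each of the 9 libraries.

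**Figure D3:**
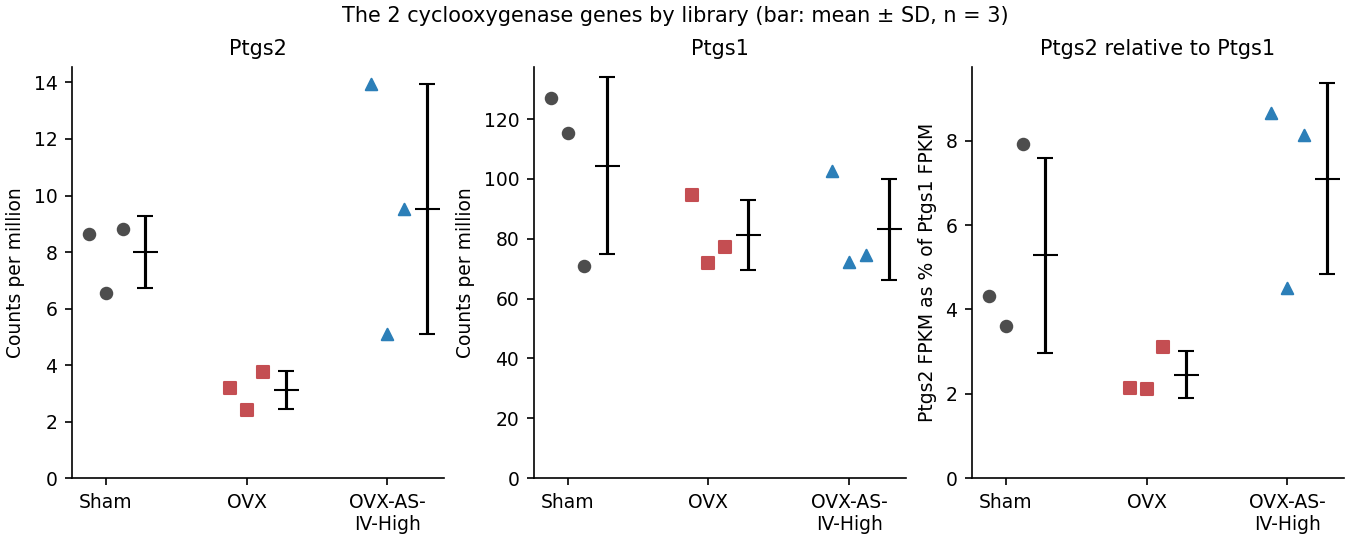
Ptgs2 in CPM, Ptgs1 in CPM, and Ptgs2 FPKM as a percentage of Ptgs1 FPKM, with 1 point per library and the mean ± SD of each group (n = 3) beside the points. OVX lies below both other groups for Ptgs2 (mean 3.12 CPM) and for the ratio (mean 2.46%), and the groups overlap for Ptgs1.

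Among the 4 terminal synthases that are members, Ptgis (25527), which makes prostacyclin, was the most abundant. Its CPM were 65.6, 74.5 and 56.7 in Sham against 39.1, 65.8 and 48.5 in OVX and 41.2, 58.0 and 51.9 in treated rats. In each ovariectomized group, 2 of 3 libraries lay below the Sham range, and 1 of each lay within it. The log2FC was -0.36 (standard error 0.200) in OVX vs. Sham, -0.02 (standard error 0.200) in treated vs. OVX and -0.38 (standard error 0.200) in treated vs. Sham. The last had a 95% interval from -0.83 to 0.07.

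Tbxas1 (24886), thromboxane synthase, which competes with Ptgis for prostaglandin H2 and is known from platelets and macrophages, was steady. It had 11.4, 16.9 and 16.9 CPM in Sham against 17.4, 16.7 and 14.2 in OVX and 14.8, 14.4 and 14.9 in treated rats. Sham replicate 1 was the lowest, and the other 8 libraries lay between 14.2 and 17.4 CPM. The log2FC was 0.09, -0.13 and -0.03 in the 3 comparisons (standard error 0.165 each), and the 95% interval of OVX vs. Sham ran from -0.28 to 0.47. The ratio of Ptgis to Tbxas1 FPKM was 12.2, 9.33 and 7.13 in Sham against 4.78, 8.37 and 7.24 in OVX and 5.88, 8.51 and 7.38 in treated rats, and the groups overlapped.

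Ptges (59103), the inducible prostaglandin E2 synthase that works downstream of Ptgs2, had 32, 38 and 43 counts in Sham against 62, 88 and 28 in OVX and 34, 65 and 43 in treated rats. Within OVX alone it spanned from 0.760 to 2.32 CPM, the lowest and the highest values of the 9 libraries, and so covered both other groups. The log2FC in OVX vs. Sham was 0.57 (standard error 0.433), against -1.36 for Ptgs2. Its 95% interval ran from -0.40 to 1.55. In treated vs. OVX it was -0.30 (standard error 0.430), and 0.08 without OVX replicate 2.

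Ptgds (25526), which makes prostaglandin D2, was near the limit of detection. It had 7, 0 and 14 counts in Sham against 4, 10 and 6 in OVX and 2, 16 and 11 in treated rats. A count of 0 in Sham replicate 2 allows up to 3 counts, by counting error only. The standard errors of its log2FC were 0.983 to 1.01, so a 2-fold difference was not detectable. Hpgds, another prostaglandin D2 synthase and no member, was far higher. Its mean CPM was 24.3 in Sham, 30.8 in OVX and 31.4 in treated rats, and the groups overlapped.

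Hpgd (79242), the enzyme that starts the breakdown of prostaglandins, was low as well, with 35, 15 and 19 counts in Sham against 20, 36 and 6 in OVX and 19, 17 and 5 in treated rats. Replicate 3 of both ovariectomized groups was the lowest, and the groups overlapped. The log2FC was -0.22 (standard error 0.672) in OVX vs. Sham and -0.56 (standard error 0.689) in treated vs. OVX. The first turned to 0.21 without OVX replicate 3 and the second to 0.08 without OVX replicate 2. It was -0.79 (standard error 0.688) in treated vs. Sham, with a 95% interval from -2.33 to 0.76. The highest library had 7.00 times the CPM of the lowest, a wider spread than the 5.82 times of Ptgs2, but without a division by group.

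Of the receptors for prostaglandin E2, Ptger4 (84023), which raises cAMP and is known to relay prostaglandin E2 to osteoblasts, was the most abundant, with 57.9% to 70.9% of the FPKM of the 3 receptor genes. Ptger3, which lowers cAMP, held 17.7% to 28.4%, and Ptger2, which raises it, 9.18% to 18.8%. Ptger4 had 24.2, 23.7 and 19.2 CPM in Sham against 21.6, 24.7 and 19.4 in OVX and 25.2, 20.9 and 18.3 in treated rats. It had the narrowest range of the 10 genes, 1.38-fold from the lowest to the highest library. Its log2FC was -0.03, -0.03 and -0.06 in the 3 comparisons (standard error 0.154 each), and the 95% interval of OVX vs. Sham, from -0.38 to 0.31, allows ratios between 0.770 and 1.24.

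Ptger3 (24929) had 217, 239 and 244 counts in Sham libraries, 220, 396 and 239 in OVX libraries, and 197, 248 and 218 in treated libraries. OVX replicate 2 was the highest, and without it the log2FC of OVX vs. Sham went from 0.21 (standard error 0.231) to -0.08, and that of treated vs. OVX from -0.34 (standard error 0.231) to -0.05. Ptger2 (81752) had 3.38, 3.29 and 2.23 CPM in Sham against 3.08, 4.72 and 2.66 in OVX and 3.30, 3.65 and 4.75 in treated rats. The groups overlapped for both receptors. The log2FC of Ptger2 was 0.23 (standard error 0.292) in OVX vs. Sham, 0.16 (standard error 0.291) in treated vs. OVX and 0.40 (standard error 0.292) in treated vs. Sham. The interval of the last ran from -0.26 to 1.05.

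Past the thresholds, an unadjusted p under 0.05 with an absolute log2FC over 1, lay 1 of the 10 members in OVX vs. Sham (Ptgs2, lower), 1 in treated vs. OVX (Ptgs2, higher) and 0 in treated vs. Sham. Over all 16874 genes tested, 3.11%, 0.830% and 3.15% were past the thresholds in these comparisons. The libraries of the groups did not overlap for 1, 1 and 0 members, against 23.3%, 12.7% and 19.9% of all genes. Ptgs2 was known to differ when the members were chosen, so nothing is read from its place in these counts. A log2FC turned in sign when 1 library was left out for 18 of the 30 values of members, all with an absolute log2FC of at most 0.561. The median log2FC of the 10 members was -0.08, -0.03 and -0.05, and that of all genes was -0.01, -0.02 and -0.01.

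**Figure D4:**
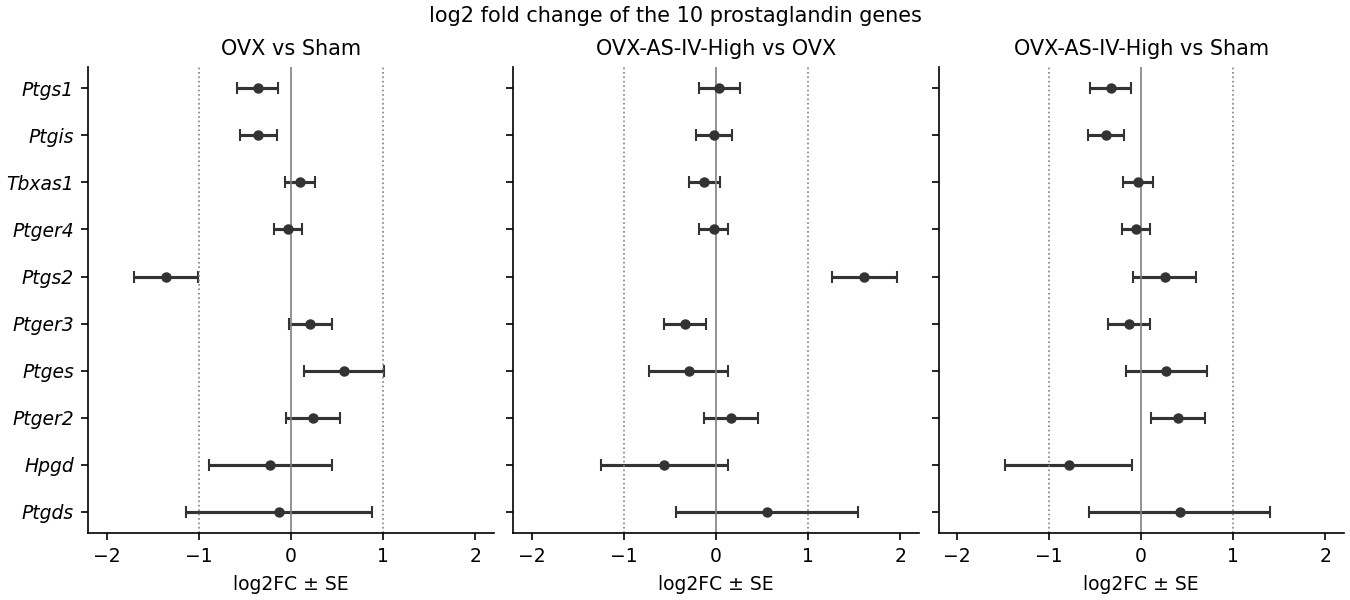
log2FC ± standard error of the 10 genes, ordered by mean FPKM, in the 3 comparisons, with dotted lines at -1 and 1. Ptgs2 lies past the lines in OVX vs. Sham (-1.36) and in treated vs. OVX (1.61), and the bars of Hpgd and Ptgds, the genes of lowest level, are the longest.

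The rest of the pathway was read from a list of 34 genes, written with earlier results of these data known, of which 32 were tested. Pla2g10 and Ptgdr were at or below 1 count in each library. In all 3 comparisons 0 of 32 were past the thresholds, against 3.11%, 0.830% and 3.15% of all genes. In edgeR's quasi-likelihood test, 5, 1 and 9 had an unadjusted p under 0.05, against 16.4%, 6.45% and 17.6% of all genes, and 0 an adjusted p under 0.05. DESeq2 gave an adjusted p under 0.05 to 2, 0 and 3 of the 32, against 834, 37 and 1009 of all 16874 genes. The groups did not overlap for 5, 4 and 10 of the 32, against 23.3%, 12.7% and 19.9% of all genes. The median log2FC was -0.06, -0.01 and -0.07.

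Upstream of the cyclooxygenases, 4 of 7 genes had a positive log2FC in OVX vs. Sham, and Pla2g4a and Anxa1 were those with an unadjusted p under 0.05. Pla2g5, a secreted phospholipase, had a log2FC of 0.36 (standard error 0.239, edgeR adjusted p = 0.448). Pla2g4a, the cytosolic phospholipase that frees arachidonic acid, had 18.1, 16.8 and 16.4 CPM in Sham against 23.7, 20.9 and 22.3 in OVX. Its log2FC was 0.38 (standard error 0.106, edgeR adjusted p = 0.165), opposite in sign to that of Ptgs2. Anxa1, a protein known to restrain phospholipase A2, had 731, 760 and 662 CPM in Sham against 914, 973 and 1185 in OVX, a log2FC of 0.51 (standard error 0.135, edgeR adjusted p = 0.154). For both genes every OVX library lay above every Sham library, and DESeq2 gave an adjusted p under 0.05 to both. The 3 largest absolute log2FC in OVX vs. Sham belonged to Pla2g12a (-0.95, edgeR adjusted p = 0.364), a secreted phospholipase, to Ptger1 (0.75, adjusted p = 0.526), the EP1 receptor, and to Alox15 (-0.74, adjusted p = 0.211), a lipoxygenase. Each of the 3 passed the thresholds when 1 library was left out: Pla2g12a without Sham replicate 3, Ptger1 without OVX replicate 1 and Alox15 without Sham replicate 1. Ptger1 was low, with a mean of 0.300 CPM in Sham and 0.509 CPM in OVX, and its log2FC had a standard error of 0.594. Pla2g12a followed the skeletal muscle markers (r = 0.894, rho = 0.933, n = 9), which ran from 1361 to 7791 CPM in Sham and 1351 to 2721 in OVX, and their part in its values was not tested.

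In treated vs. OVX, the largest absolute log2FC were -0.49 for Pla2g2a, a secreted phospholipase, -0.45 for Ptgdr2, a prostaglandin D2 receptor, and 0.45 for Cysltr2, a leukotriene receptor (edgeR adjusted p = 0.913, 0.928 and 0.941). The single gene with an unadjusted p under 0.05 was Ptgfr, the prostaglandin F2α receptor, named for that reason after its values were seen. It had 15.4, 22.7 and 19.6 CPM in OVX against 27.0, 28.5 and 23.1 in treated rats, which did not overlap (log2FC 0.45, standard error 0.158, edgeR adjusted p = 0.678).

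In treated vs. Sham, the genes with an adjusted p under 0.05 in DESeq2 were Anxa1, Lta4h, which makes leukotriene B4, and Ptges2, and they did not reach it in edgeR. Anxa1 had 1151, 1178 and 938 CPM in treated rats (log2FC 0.60, standard error 0.135, edgeR adjusted p = 0.107). Lta4h had 152, 150 and 174 CPM in Sham against 203, 217 and 237 in treated rats (log2FC 0.47, standard error 0.10, edgeR adjusted p = 0.103). Ptges2 had 15.4, 12.7 and 11.3 CPM in Sham against 9.03, 8.37 and 8.96 in treated rats (log2FC -0.58, standard error 0.15, edgeR adjusted p = 0.125). The groups did not overlap for any of the 3 genes. The largest absolute log2FC was that of another gene, Slco2a1, the transporter that carries prostaglandins into cells for breakdown, had 7.88, 8.95 and 12.8 CPM in Sham against 3.55, 5.98 and 6.05 in treated rats. The groups did not overlap (log2FC -0.93, standard error 0.314, edgeR adjusted p = 0.189), and in OVX it had 4.93, 9.52 and 6.21 CPM. Slco2a1 is also expressed by endothelium, whose markers (4 of 4 found) ran from 176 to 226 CPM in Sham and from 145 to 159 in treated rats, and their part was not tested. It was past the thresholds without Sham replicate 1, without treated replicate 2 and without treated replicate 3. Next in size were Pla2g2a (-0.79, adjusted p = 0.266) and Pla2g12a (-0.77, adjusted p = 0.450).

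Genes known to be induced by the same stimuli as Ptgs2, or to induce it, were read from a second list of 30 genes, of which 29 were tested. Il6 was not, with 0 to 21 counts. The list was written with earlier results of these data known. Its counts and shares, here and below, are therefore a description, and nothing is read from their distance to those of all genes. In OVX vs. Sham, 3 of 29 were past the thresholds, all lower in OVX, against 3.11% of all genes in either direction. They were Fosb and Atf3, transcription factor genes, and Nr4a1, an orphan nuclear receptor gene, all of the immediate early class. Fosb had 6.73, 6.86 and 3.55 CPM in Sham against 0.954, 3.38 and 0.624 in OVX (log2FC -1.79, standard error 0.643, edgeR adjusted p = 0.227). Atf3 had 8.65, 7.25 and 5.69 CPM against 4.42, 2.43 and 1.74 (log2FC -1.33, standard error 0.393, adjusted p = 0.175), and Nr4a1 had 35.6, 48.9 and 27.6 CPM against 15.0, 22.4 and 13.8 (log2FC -1.13, standard error 0.293, adjusted p = 0.153). The OVX libraries lay below all Sham libraries for each of the 3 genes. Nr4a3, a relative of Nr4a1, had the second largest log2FC, -1.58, and did not pass (standard error 0.868, adjusted p = 0.376).

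By class, 16 of 18 immediate early genes had a negative log2FC in OVX vs. Sham, with a median of -0.59. An unadjusted p under 0.05 was found for 12 of the 18, against 16.4% of all genes, and 11 of these 12 were lower. The exception was Crem, a cAMP-responsive factor (log2FC 0.32, standard error 0.111, adjusted p = 0.218). Of 9 inflammatory genes tested, 6 were negative and 0 had an unadjusted p under 0.05. Of the inflammatory inducers of Ptgs2, Il1b had a log2FC of 0.11 (standard error 0.180) and Tnf of -0.28 (standard error 0.535), and the groups overlapped for both. Tnfsf11 (RANKL) and Tnfrsf11b (osteoprotegerin), through which prostaglandin E2 is known to act on osteoclasts, had 0.20 (standard error 0.319) and -0.24 (standard error 0.445). The number of the list past the thresholds was 5 without Sham replicate 3, 6 without OVX replicate 2, and 1 without Sham replicate 2 or without OVX replicate 3, when Atf3 alone was left.

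In treated vs. OVX, 2 of 29 were past the thresholds, both higher, against 0.830% of all genes in either direction. Egr3, an early growth response factor, had 9.51, 7.33 and 11.6 CPM in OVX against 27.9, 17.2 and 15.6 (log2FC 1.09, standard error 0.287, edgeR adjusted p = 0.652). Nr4a3 had 0.218, 1.34 and 0.298 CPM against 3.72, 1.49 and 3.57 (log2FC 2.23, standard error 0.874, adjusted p = 0.733). Cxcl1, a neutrophil chemokine, had the second largest value, 1.11 (standard error 0.520, adjusted p = 0.794), and did not pass. Of 18 immediate early genes, 15 had a positive log2FC, with a median of 0.31, and 8 had an unadjusted p under 0.05, all higher, against 6.45% of all genes in either direction. With the replicate number as a block, 4 of 29 passed (Cxcl1, Egr3, Nr4a1 and Nr4a3). Without treated replicate 1, 0 passed, without OVX replicate 1 or treated replicate 3 only Egr3 passed, and without treated replicate 2, 4 passed.

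The OVX libraries stand in both of these comparisons, so low values there enter both. The log2FC of treated vs. Sham does not use their level, though the shared fit draws on them for the spread. In that comparison, 1 of 29 was past the thresholds, against 3.15% of all genes. It was Atf3, lower at -1.19 (standard error 0.391, edgeR adjusted p = 0.177). Without treated replicate 3, 0 passed. The median of the immediate early genes was 0.00, with 9 of 18 positive and 9 negative. Of the 18, 6 had an unadjusted p under 0.05 (4 of them lower), against 17.6% of all genes. For 7 the groups did not overlap (5 of them lower), so the median does not stand for each gene. Over the whole list of 29, the median log2FC was -0.29, 0.20 and -0.01 in the 3 comparisons, and 10, 8 and 9 genes had groups that did not overlap, against 23.3%, 12.7% and 19.9% of all genes. The genes of the list answer to shared stimuli and are not independent of each other.

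**Figure D5:**
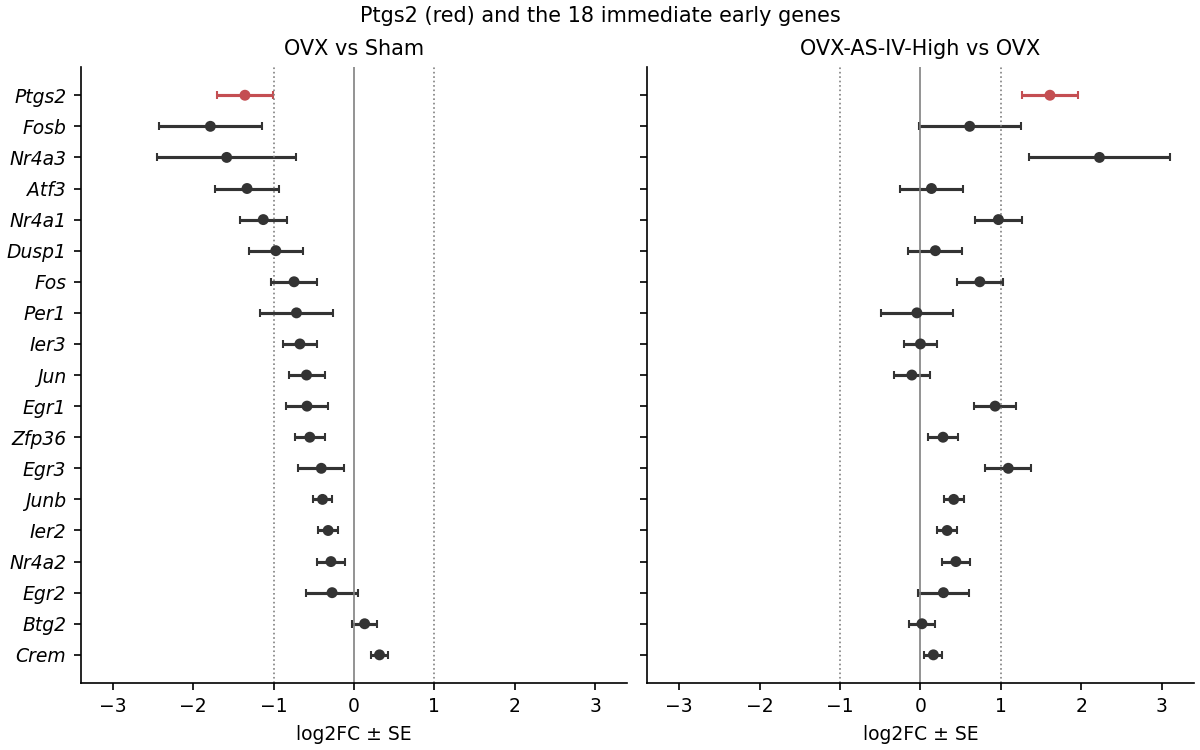
log2FC ± standard error of Ptgs2 (red) and the 18 immediate early genes in OVX vs. Sham and treated vs. OVX, ordered by the first comparison, with dotted lines at -1 and 1. In the first, 16 of the 18 lie left of 0, in the second, 15 lie right of 0, and Atf3 and Dusp1, far to the left in the first, lie near 0 in the second.

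The genes whose log2 CPM followed Ptgs2 most closely over the 9 libraries, among 14478 genes with a mean of at least 1 CPM, were Bbc3 (r = 0.913, rho = 0.767), a gene of apoptosis, and Egr1 (r = 0.899, rho = 0.933), an immediate early transcription factor. LOC120099854 (r = 0.889, rho = 0.883), Akirin2 (r = 0.874, rho = 0.867), a nuclear protein gene, and Desi1 (r = 0.872, rho = 0.783) came next. These values rank likeness over 9 libraries and carry no test. Genes picked this way share the pattern of Ptgs2 by construction, so the adjusted p-values given below for Egr1 are no test of it. Egr1 had 81.5, 66.7 and 78.9 CPM in Sham against 39.7, 50.4 and 61.3 in OVX and 113, 57.4 and 118 in treated rats. Like Ptgs2, it was lower in each OVX library than in each Sham library and lowest of its group in treated replicate 2, where it fell within the OVX range. In OVX vs. Sham its log2FC was -0.59 (standard error 0.259, edgeR adjusted p = 0.303). Against OVX, the treated libraries gave 0.93 (standard error 0.260, edgeR adjusted p = 0.652). Bbc3 moved over a narrower range, from 14.5 to 21.6 CPM.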

How the data were processed

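Per the study's methods, the authors filtered the reads for quality, aligned them (Tophat, Bowtie2) and estimated gene levels (eXpress), and the submitters' processing notes name the build mRatBN7.2. The authors deposited raw counts in whole numbers and, for the same genes, FPKM. How the estimates of eXpress became whole numbers, and whether counting used strand, is not given in the sources used here. The deposited FPKM are the counts divided by depth and by 1 length per gene, within 1% in 11928 of 11928 genes that had 100 counts or more everywhere. The members and both gene lists were chosen with earlier results of these data known.

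Counts were fitted with edgeR 4.0.16 in R 4.3.3 (quasi-likelihood test, TMM, default filter with a minimum count of 10, all 9 libraries in 1 fit), and p-values were adjusted by Benjamini-Hochberg over 16874 genes. The biological coefficient of variation (common to these genes) came to 0.256. CPM use TMM library sizes. The standard error is the absolute log2FC over the square root of F. Named from the lists are the genes past the thresholds, the 3 with the largest absolute log2FC and those singled out in the text, such as genes at a low unadjusted p or called by DESeq2, the inducers and the bone targets, which were chosen after their values were seen. Likeness to Ptgs2 is Pearson's r on log2 CPM (prior count 2). The methods call the libraries independent biological replicates. The p-values set a difference of groups against the spread between libraries, which was estimated over all 3 groups and moderated across genes. With 3 libraries a group, an exact permutation test cannot give a p below 0.1.

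No label says that replicate numbers mark a shared batch, so pairing was judged from the correlation of deviations from the group means. OVX and treated libraries of the same number had correlations of 0.31, 0.158 and 0.13 for replicates 1, 2 and 3. All were positive, but no label backs pairing, so whether these libraries were paired was not settled. Values for Sham against OVX were 0.2, -0.161 and 0.253. Those for Sham against treated libraries were 0.314, -0.158 and 0.435. Each of these sets held a negative value, and the last reached higher than OVX against treated libraries. The main fit had no replicate term in any comparison, so its standard errors would not take up a pairing if there was one. The replicate block was run only as an alternative. The alternatives were DESeq2 1.42.0, RLE size factors, no filter, the 2 groups alone, the replicate block, limma 3.58.1 on log2(FPKM + 1) and log2(FPKM + 0.1), an absolute log2FC over 0.58, an adjusted p, and each library left out. Python 3.11.15 and matplotlib 3.10.9 drew the plots. Promoters are RefSeq's on GRCr8, another build than that of the counts. The coordinates of the 2 promoter stretches are on GRCr8, and none are given on the build of the counts.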

Additional observations from a re-analysis of the deposited data

How the results depend on the processing

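The count of members past the thresholds was 1 in OVX vs. Sham, 1 in treated (OVX-AS-IV-High) vs. OVX and 0 in treated vs. Sham. It went to 0 in the first 2 with limma on log2(FPKM + 1) and with edgeR's adjusted p under 0.05, and was 1, 1 and 0 with each library left out. DESeq2 gave an adjusted p under 0.05 to 1, 1 and 0 members, against 834, 37 and 1009 of 16874 genes. With the pseudocount of 1, Ptgs2 misses the fold threshold (-0.71 and 0.83). Of 478 recomputed log2FC of members, 474 moved by less than the spread between replicates, 4 moved by more and 0 called values turned in sign. The only called values were those of Ptgs2 in the first 2 comparisons. The spread is each gene's own, so a variable gene can turn in sign within it. Ptgds in OVX vs. Sham did so, from -0.13 to 0.85 without Sham replicate 3. For the pathway list, 0 past the thresholds became 1, 0 and 5 at an absolute log2FC over 0.58, and leaving out 1 library gave 0 to 1, 0 and 0 to 2, with 2 in treated vs. Sham without Sham replicate 1 or 3. For the list of genes induced with Ptgs2, the counts of 3, 2 and 1 became 0, 0 and 0 with limma on log2(FPKM + 1) and with edgeR's adjusted p. They became 8, 5 and 5 at an absolute log2FC over 0.58. DESeq2 gave an adjusted p under 0.05 to 2, 0 and 2 of this list (Atf3 and Nr4a1 in the first comparison, Atf3 and Crem in the last). Without a filter on low counts treated vs. OVX gave 4, with Il6 and Cxcl1 added, and the 2 groups alone gave 2 in treated vs. Sham. With the replicate block it was 4 in OVX vs. Sham, with Dusp1 added, 4 in treated vs. OVX and 2 in treated vs. Sham, and the block changed no count of members or of the pathway list. Leaving out 1 library gave 1 to 6, 0 to 4 and 0 to 2. Beyond what the construction of a setting shows, the cause was not tested. Depth limits Ptgds and Hpgd, with at most 16 and 36 counts a library.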
